A study of Mus musculus with 72 samples.

Results

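The genes described here are 9 members of the iron handling system: Hamp and Hamp2, which encode the hepcidins, Bmp6, Tfr2, Tfrc, Trf, Slc40a1, Fth1 and Ftl1. They were chosen by name, out of 23787 genes that could be named on the array, and were measured by 13 probes. Tfrc, Tfr2, Trf and Ftl1 had 2 probes each, and the brightest probe stood for the gene unless the other is named. The brightest probe of each of the 9 genes was well above background on all 18 liver arrays and all 18 lung arrays.

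The mice were female C57BL/6 J animals aged 6 to 8 weeks, with no genetic change named in the labels. Whole body irradiation (WBI) was given once, with X-rays at 1.05 Gy/min, to 5 groups, with surface doses from 1 Gy in the lowest, through 2, 4 and 8, to 12 Gy in the highest. Control mice (0 Gy) were handled alike and sham irradiated. Liver and lung were measured 48 h later on 36 one-colour mRNA arrays, with 3 mice per dose and tissue. The labels do not say whether liver and lung samples of one number came from one mouse. The series' own design text speaks of hearts where the sample labels say liver and lung, and the sample labels were used. All 13 hepatocyte markers were well above background on every liver array, and all 8 lung epithelium markers on every lung array.

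Hepcidin is a small peptide hormone that hepatocytes secrete. It binds ferroportin, the iron exporter encoded by Slc40a1, on macrophages, enterocytes and hepatocytes, and the exporter is then degraded, so that iron stays inside these cells. Transcription of Hamp is raised by bone morphogenetic proteins such as BMP6, which signal through SMAD proteins, and by interleukin 6, which signals through STAT3, and TFR2 on hepatocytes senses transferrin-bound iron. Transferrin (Trf) carries iron in plasma, the transferrin receptor (Tfrc) takes it up, and the ferritin heavy and light chains (Fth1 and Ftl1) store it. Mice carry a second hepcidin gene, Hamp2, next to Hamp.

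The stretches of 150 bases just upstream of the 2 hepcidin genes are shown because these neighbours, which lie on the minus strand of chromosome 7, are close copies whose liver values after WBI are set side by side in the results. They come from the RefSeq promoter windows of build GRCm38.p6 and are written 5′ to 3′ along the gene, at chr7:30944030-30944179 for Hamp and chr7:30924182-30924331 for Hamp2. Capitals mark the letters GGCGCC, the core of the BMP response element, and TTCTTGGAA, the STAT site of the hepcidin promoter.
Hamp: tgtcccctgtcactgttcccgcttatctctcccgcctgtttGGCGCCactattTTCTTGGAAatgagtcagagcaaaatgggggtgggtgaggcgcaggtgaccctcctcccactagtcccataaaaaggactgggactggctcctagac
Hamp2: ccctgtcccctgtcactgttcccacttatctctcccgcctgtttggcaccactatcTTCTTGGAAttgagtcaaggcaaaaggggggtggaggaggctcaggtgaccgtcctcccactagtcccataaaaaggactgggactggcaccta

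When the STAT sites were lined up, 135 of 147 bases were identical between both genes (91.8%). The STAT letters began 97 bases before the annotated start of Hamp and 94 bases before that of Hamp2. The letters GGCGCC were found 109 bases before the start of Hamp and nowhere in the Hamp2 window, which ran from 250 bases before to 50 after the start. Searched on both strands, GGCGCC was present in 11.9% of all 32851 promoter windows and TTCTTGGAA in 0.417%. Of the 11 windows that covered 7 of the 9 members, GGCGCC was found also in 1 of the 2 windows of Tfrc. The windows of the other members held neither motif. These matches describe letters, and binding was not measured.

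Between 46.1% and 54.0% of spots on the liver arrays and between 54.1% and 64.0% on the lung arrays were well above background, and no spot was saturated on any array. The lung arrays differed widely in the signal of hepatocyte genes: the mean log2 level of the 13 hepatocyte markers ran from 6.19 to 12.74 in lung, against 17.71 to 17.86 in liver. The highest value belonged to lung sample 24 at 4 Gy. The 8 lung epithelium markers averaged between 5.22 and 7.22 in liver, with sample 16 at 12 Gy and samples 1 and 11 at 0 Gy on top. The arrays lay on 5 slides. All liver arrays of 0 and 1 Gy shared 1 slide and all lung arrays of 0 and 1 Gy another. No lung array of 2 Gy or more shared a slide with the lung controls, so slide and dose cannot be told apart there. In the liver, no array of 4, 8 or 12 Gy shared a slide with the controls. Those doses are linked to the control slide only through 2 Gy sample 23, which lay with the 4 and 8 Gy livers. Slide and dose can thus hardly be told apart at these liver doses either. The 3 lungs of 12 Gy and sample 25 of 8 Gy lay on the slide scanned on the second scan day and stood apart, with 54.1% to 54.8% of spots well above background against 59.2% to 64.0% on the other lung arrays, and median spot intensities of 80 to 85 against 107.5 to 124. In the text, a level is the log2 of a normalized intensity, and a difference is dose minus 0 Gy on that scale with its standard error. A gene rose or fell if its Benjamini-Hochberg adjusted p in limma, taken over all probes tested, was under 0.05. Where the 3 arrays of a dose lay above or below the 3 controls, this describes those arrays and is not a call. The share of all probes is given for arrays above the controls in lung at 12 Gy and for all 15 irradiated livers, not for other separations.

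In the liver, Hamp, the hepcidin gene that is the main hormone source, was higher at every dose of WBI and by almost the same amount from 1 Gy to 12 Gy. Its levels were 17.08, 17.18 and 16.93 in the 3 control livers and 18.06, 17.76 and 18.1 after 1 Gy. After 2 Gy they were 17.9, 18.14 and 18, and after 4 Gy 17.89, 17.93 and 18.04. After 8 Gy they were 17.91, 17.96 and 17.91, and after 12 Gy 17.97, 17.91 and 17.95. Each of the 15 irradiated livers thus lay above each of the 3 controls, a pattern shown by 1.16% of all probes with complete values. Hamp rose by 0.91 (SE 0.11) at 1 Gy, or 1.88-fold, with an adjusted p of 0.00852 in limma. The difference was 0.95 at 2 Gy, 0.89 at 4 Gy, 0.86 at 8 Gy and 0.88 at 12 Gy, each with an SE of 0.11 and limma adjusted p-values of 0.000782, 0.000585, 4e-04 and 0.000272. All 5 comparisons use the same 3 controls, and none of these differences reached 2-fold. The size depended on the normalization. At 2 Gy it was over 2-fold on the scanner software's processed signal (1.06, adjusted p = 0.00484) and on the authors' series values (1.03, adjusted p = 0.00606), both in limma. With liver and lung arrays normalized together, the differences lay between 0.61 at 8 Gy and 0.67 at 2 Gy.

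Hamp had no linear dose trend in the liver that passed. The fitted change over 12 Gy was 0.40 (SE 0.22, adjusted p = 0.278 in limma). The comparison of 1 Gy with 0 Gy lay within one slide. With slide as a fixed term the differences at 4, 8 and 12 Gy kept their size (0.91, 0.88 and 0.93) but no longer passed (limma adjusted p = 0.136, 0.0859 and 0.102). At 1 Gy the call was lost on the scanner software's processed signal (0.85, adjusted p = 0.0652), on the authors' series values (0.82, adjusted p = 0.0785), with only the 0 and 1 Gy groups in the fit (adjusted p = 0.639) and without control sample 21 (0.85, adjusted p = 0.0784), all in limma. At 2 Gy it was lost with only the groups compared in the fit (adjusted p = 0.141).

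Hamp was the only member to pass in the liver at any single dose. It was 1 of 9 members at 1 Gy, where 0.0417% of all 38362 probes passed in either direction, at 2 Gy (0.459% of probes), at 4 Gy (3.31%), at 8 Gy (9.9%) and at 12 Gy (7.02%). The other 8 members gave 40 comparisons with 0 Gy in the liver, and 0 passed. The median difference of the 9 members ran from -0.09 at 12 Gy to 0.05 at 1 Gy, beside a median near 0 over all probes.

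**Figure D1:**
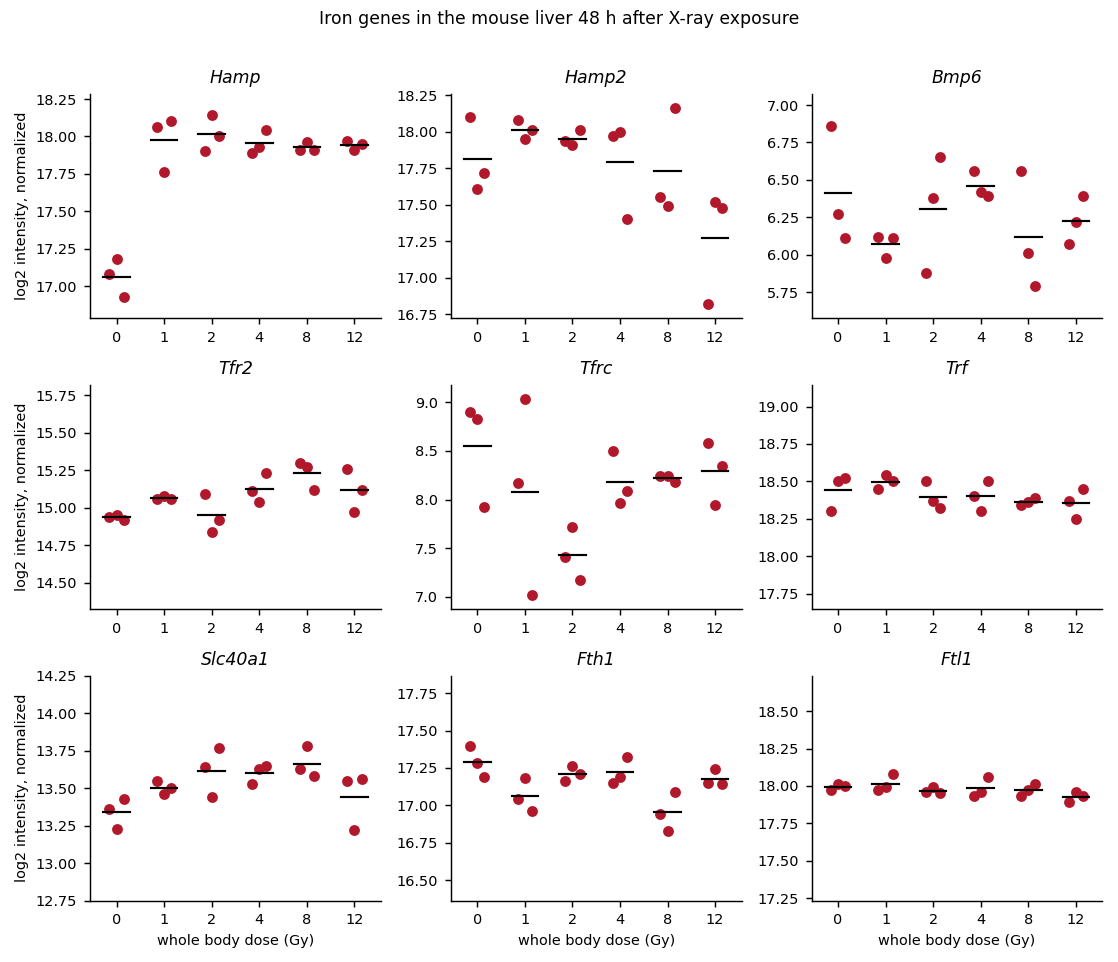
Levels of the 9 iron genes in the liver (y axis, log2 normalized intensity, a scale of its own in each panel) against whole body dose (x axis, Gy). Each point is 1 mouse and each bar the mean of 3. Hamp steps up from 17.06 at 0 Gy to 17.97 at 1 Gy and stays there, while Hamp2 is lowest at 12 Gy.

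Hamp2, the neighbouring hepcidin gene, passed at no single dose. Its liver levels were 18.1, 17.61 and 17.72 at 0 Gy and 18.08, 17.95 and 18.01 at 1 Gy. They were 17.94, 17.91 and 18.01 at 2 Gy, 17.97, 18 and 17.4 at 4 Gy, and 17.55, 17.49 and 18.16 at 8 Gy. After 12 Gy they were 16.82, 17.52 and 17.48, all below the controls. The 12 Gy difference was -0.53 (SE 0.22, adjusted p = 0.181 in limma). The linear trend fell by 0.60 over 12 Gy (SE 0.18, adjusted p = 0.0401 in limma), and Hamp2 was the 1 of 9 members whose trend passed in the liver, where 9.5% of all probes did. That call is a narrow one, since 17 of 28 alternative fits in limma lost it while the sign stayed negative in all 28. They include the processed signal, the authors' series values, both slide fits and the fits that left out any 1 of 11 arrays. Without 12 Gy sample 6 the trend was -0.39 (adjusted p = 0.196 in limma). Hamp and Hamp2 are close copies, and the files used here do not give the probe sequences, so how far each probe tells them apart was not tested.

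Of the genes that convey the iron signal to hepcidin, neither Bmp6 nor Tfr2 passed in the liver. Bmp6, the ligand, had levels between 5.79 and 6.86 over the 18 livers, and its differences lay between -0.34 and 0.04. Tfr2, the hepatocyte sensor of transferrin-bound iron, was at 14.94, 14.95 and 14.92 in the controls and at 15.3, 15.27 and 15.12 after 8 Gy, a difference of 0.29 (SE 0.10, adjusted p = 0.0891 in limma). The irradiated livers were above the controls at 1, 4, 8 and 12 Gy for Tfr2 and overlapped them at 2 Gy. How many of all probes showed this at these doses is not given, so it is a description only. Its second probe gave 0.40 at 8 Gy (SE 0.14, adjusted p = 0.0751 in limma). Tfr2 at 8 Gy passed in 2 alternatives, with a background offset of 50 in normexp (adjusted p = 0.0473 in limma) and with the mean of both probes (adjusted p = 0.0443 in limma).

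Among the genes of uptake and transport, Tfrc showed the widest scatter in the liver. Its control levels were 8.9, 8.83 and 7.92, and those at 2 Gy were 7.41, 7.72 and 7.17. The 2 Gy livers were all below the controls, but the difference of -1.11 (SE 0.39) had an adjusted p of 0.262 in limma. At the other doses Tfrc levels overlapped those of the controls. The second probe of Tfrc was near background in the liver, between 4.02 and 5.07, and was not well above it in any of the 3 controls. Trf, the plasma carrier, was among the steadiest members, with levels between 18.25 and 18.54 and differences between -0.09 and 0.05.

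The exporter and the storage genes did not pass in the liver. Slc40a1 was at 13.36, 13.23 and 13.43 in the controls and at 13.63, 13.78 and 13.58 after 8 Gy, where its difference was largest (0.32, SE 0.12, adjusted p = 0.0981 in limma). The livers at 1, 2, 4 and 8 Gy lay above the controls, and those at 12 Gy overlapped them. For Slc40a1 here, and for Fth1 below, the share of all probes so separated is not given, so this is a description only. Fth1, the heavy chain with ferroxidase activity, was at 17.4, 17.28 and 17.19 in the controls and at 16.94, 16.83 and 17.09 after 8 Gy. All livers at 1 and 8 Gy were below the controls for Fth1, and at 8 Gy the difference of -0.34 (SE 0.10) had an adjusted p of 0.0531 in limma. It passed with a normexp offset of 50 (adjusted p = 0.0241) and without 8 Gy sample 25 (-0.40, adjusted p = 0.036), both in limma. Ftl1, the light chain, ranged only from 17.89 to 18.08. The mouse genome holds near-identical processed copies of both ferritin genes, and their signals cannot be told apart from the parent genes here.

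The upstream control genes of hepcidin were examined as a list of 25, of which 23 were measured above background in the liver. None passed at 1 Gy in limma. At 8 Gy, where 9.9% of all probes passed, 5 rose and 1 fell (Il6st, a subunit of the interleukin 6 receptor, -0.41), and at 12 Gy (7.02% of all probes) 5 rose and 0 fell. In the linear trend (9.5% of all probes) 8 rose and 1 fell, with a median change of 0.19. Il6 and Erfe, which encode the inflammatory and the erythroid signal to hepcidin, were not well above background on any liver array.

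Id1, a SMAD target that rises with BMP signalling in hepatocytes and other cells, had the smallest adjusted p of the named control genes at 8 and 12 Gy. Its liver levels were 9.55, 9.77 and 10.26 at 0 Gy, 11.39, 10.34 and 10.49 at 1 Gy, and 12.23, 12.03 and 12.49 at 12 Gy. All irradiated livers in these groups were above the controls. Id1 rose by 2.39 at 12 Gy (SE 0.27, adjusted p = 0.000123 in limma) and by 2.05 at 8 Gy (SE 0.27, adjusted p = 0.000538 in limma).

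Atoh8, another target of this pathway, rose by 1.11 at 12 Gy (SE 0.24, adjusted p = 0.0114 in limma). Smad7, an inhibitor that the pathway itself induces, had a trend of 1.27 (SE 0.39, adjusted p = 0.0453 in limma), but its difference at 12 Gy was 1.18 (SE 0.36, adjusted p = 0.0684). The trend of Smad7 lost its call in 14 of 28 alternatives and was 0.17 with slide as a fixed term. Bmp2, a second ligand, had a trend of 0.52 (adjusted p = 0.0315 in limma). Smad6, a further inhibitor, was the gene whose trend fell, by 0.55 (adjusted p = 0.0243 in limma).

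On the inflammatory side, Il6ra, the interleukin 6 receptor, rose by 1.21 at 12 Gy (SE 0.23, adjusted p = 0.00495 in limma), with levels of 14.39, 14.35 and 14.49 against 13.51, 13.06 and 13.02. Stat3 rose by 0.56 at 12 Gy (adjusted p = 0.0198 in limma). Gdf15, a stress cytokine, had a trend of 2.31 (SE 0.58, adjusted p = 0.0156 in limma), but its control livers were spread from 8.21 to 11.32. Its differences at 8 Gy (2.26, SE 0.76, adjusted p = 0.0737) and 12 Gy (2.48, SE 0.76, adjusted p = 0.0639) did not pass in limma. Fgl1, a hepatokine that can lower hepcidin, rose by 0.55 at 12 Gy (adjusted p = 0.0403 in limma).

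**Figure D2:**
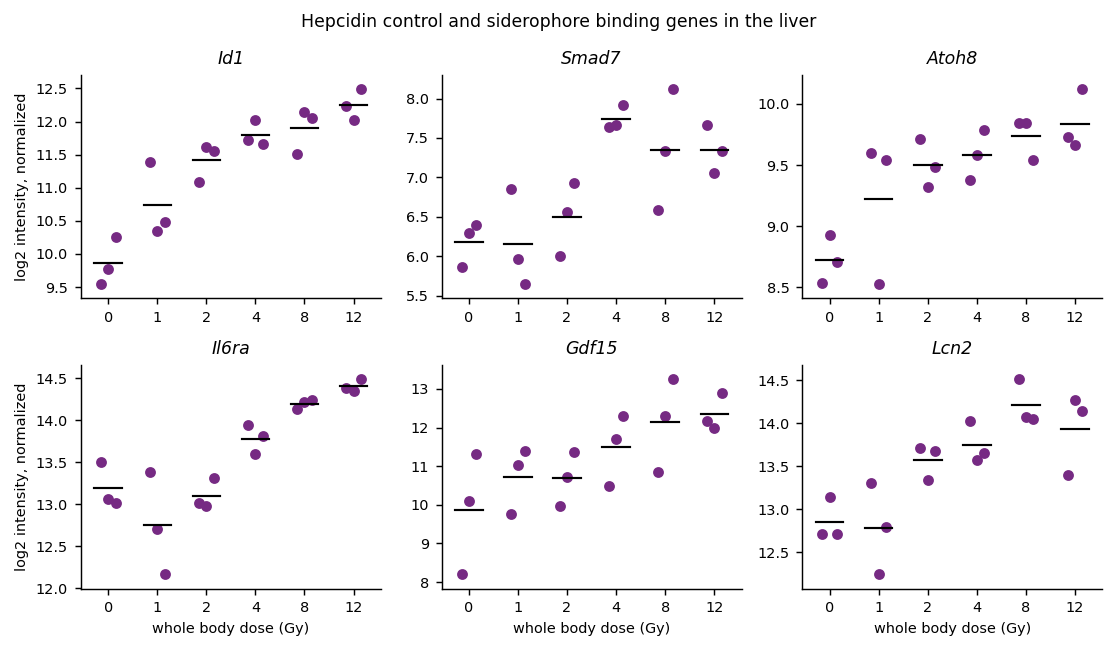
Levels in the liver (y axis, log2 normalized intensity) against whole body dose (x axis, Gy) for 5 hepcidin control genes and Lcn2, which binds iron-carrying siderophores. Points are mice and bars are means of 3. Id1 climbs from controls between 9.55 and 10.26 to values between 12.03 and 12.49 at 12 Gy, with intermediate values at 2 and 4 Gy.

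Other measured cell and response markers moved in the same livers. Of the 11 acute phase genes, 3 rose at 2 Gy, 5 at 4 Gy, 7 at 8 Gy and 7 at 12 Gy, and 4 passed in the linear trend. The shares of all probes that passed were 0.459%, 3.31%, 9.9% and 7.02% at those doses and 9.5% in the trend. Their array means were 14.11 to 14.22 at 0 Gy, 14.45 to 14.77 at 1 Gy and 15.15 to 15.32 at 2 Gy, and 15.16 to 15.4 at 12 Gy. Saa1, a serum amyloid gene, rose by 3.84 at 12 Gy (SE 0.40, adjusted p = 5.99e-05 in limma). None of the 11 passed at 1 Gy, where Saa1 had a difference of 2.19 (adjusted p = 0.0889 in limma). The hepatocyte list stayed between 17.71 and 17.86 over the 18 livers. The Kupffer cell and macrophage list fell, with 9 of 12 genes lower at 12 Gy and array means of 11.12 to 11.18 against 11.68 to 11.86 in the controls. At 12 Gy, where 7.02% of all probes passed, 4 of 8 liver endothelium markers fell while 1 rose. Their part in the values of Hamp and Slc40a1 was not tested. In such bulk tissue, fewer cells of a type and less RNA per cell cannot be told apart.

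In the remaining lists of iron genes, the heme and hemoglobin list had the most calls in the liver at 8 Gy, where 9.9% of all probes passed. There 4 of its 11 genes rose (Hp, Hpx, Hmox1 and Blvra, by 0.27 to 0.44), with 2 of 10 genes of sensing and storage (Fbxl5 and Ncoa4) and 1 of 14 of uptake and export (Lcn2), while 1 of the 14 fell (Slc22a17). At 12 Gy, where 7.02% of all probes passed, 1 of 14 genes of iron uptake and export rose and 0 fell. A count of 1 in a list of 10 to 14 genes lies near that share. The gene was Lcn2, with levels of 13.4, 14.27 and 14.14 against 12.71, 13.14 and 12.71 (1.08, SE 0.27, adjusted p = 0.0244 in limma). This call of Lcn2 was lost in 6 of 16 alternatives, and the difference was 0.39 with slide as a fixed term. In the trend (9.5% of all probes), 2 of the 14 rose (Lcn2 and the zinc and iron importer Slc39a14) and 2 fell (the ferrireductase Steap3 and the ferroxidase Heph). Of 11 genes of iron sensing and storage, 10 were measured and 1 rose at 12 Gy, Ncoa4, the receptor that delivers ferritin for degradation (0.50, adjusted p = 0.0196 in limma). Of 11 genes of heme and hemoglobin recycling, 1 rose at 12 Gy, the haptoglobin gene Hp (0.29, adjusted p = 0.0399 in limma).

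The liver genes whose levels followed those of Hamp most closely over the 18 arrays were Gm35472 (Pearson r = 0.943), Cdhr2 (r = 0.938) and Tbata (r = 0.935), out of 12365 genes compared. For Tfrc they were Wdr12 (r = 0.814), Jagn1 (r = 0.762) and Srsf6 (r = 0.744). These coefficients describe 18 arrays that share doses and slides.

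In the lung, the member that rose was Slc40a1, the exporter, and it did so at the highest dose. Its lung levels were 9.5, 9.28 and 9.89 at 0 Gy, 9.61, 9.83 and 9.75 at 1 Gy, and 9.73, 9.76 and 9.81 at 2 Gy. At 4 Gy they were 10.13, 10.45 and 10.29, at 8 Gy 9.82, 10.56 and 10.13, and at 12 Gy 10.2, 10.99 and 10.58. The lungs at 4 and 12 Gy were all above the controls, and those at the other doses overlapped them. Slc40a1 rose by 1.03 at 12 Gy (SE 0.22, adjusted p = 0.00458 in limma), or 2.05-fold, and its trend rose by 0.94 over 12 Gy (SE 0.19, adjusted p = 0.00107 in limma). The 12 Gy difference still passed but was under 2-fold with outlier spots kept (0.92), with a normexp offset of 50 (0.99) and on the authors' series values (0.98). The level of 10.99 came from sample 16, whose array had 1578 outlier spots against 110 to 600 on the other lung arrays. All 12 Gy lungs are among the dimmer arrays of the second scan day, so scan day and this dose cannot be told apart. Without the 4 arrays of that day the trend, which then rested on doses up to 8 Gy, was 1.1 over 12 Gy and did not pass (adjusted p = 0.0671 in limma).

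At 12 Gy, Slc40a1 was the 1 of 9 members that passed in the lung, where 21.3% of all 43979 probes did. It was also 1 of 3 members whose 12 Gy lungs were all above the controls, with Hamp and Fth1, and 21.8% of all probes with complete values showed that pattern. At 1, 2, 4 and 8 Gy none of the 9 members passed in limma, and the shares of all probes were 0.025%, 0.55%, 2.18% and 4.25%. With slide as a random block, the 12 Gy difference of Slc40a1 was 1.04 (adjusted p = 0.0627 in limma), and with only the 2 dose groups in the fit its adjusted p was 0.058. The macrophage list of the liver ran from 9.99 to 10.53 in the control lungs and from 10.28 to 10.76 at 12 Gy, and 1 of its 12 genes rose. The alveolar macrophage list ran from 12.31 to 12.92 and from 12.25 to 12.5, and 2 of its 8 genes fell. Their part in the level of Slc40a1 was not tested.

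Tfrc, the receptor for iron uptake that dividing cells and red cell precursors carry in quantity, had a falling trend in the lung. Its levels were 10.82, 11.48 and 10.54 at 0 Gy, 11.36, 11.32 and 11.15 at 1 Gy, and 10.65, 11.16 and 10.84 at 2 Gy. At 4 Gy they were 11.41, 9.44 and 10.62, at 8 Gy 10.78, 9.09 and 8.92, and at 12 Gy 9.72, 9.76 and 10.28. Only the 12 Gy lungs were all below the controls. The trend fell by 1.47 over 12 Gy (SE 0.39, adjusted p = 0.00813 in limma), while the single differences were -1.35 at 8 Gy (SE 0.47, adjusted p = 0.143) and -1.03 at 12 Gy (SE 0.47, adjusted p = 0.134), neither of which passed in limma. Without the 4 arrays of the second scan day the trend was -1.83 and did not pass (adjusted p = 0.147 in limma). Without 8 Gy sample 5 the difference at 8 Gy was -1.94 (adjusted p = 0.0165 in limma).

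The trend of Tfrc passed by 1 of its 2 probes. The second probe, with lung levels between 5.07 and 6.2 and well above background on 13 of 18 arrays, had a trend of -0.38 (SE 0.23, adjusted p = 0.228 in limma). Tfrc and Slc40a1 were the 2 of 9 members whose trend passed in the lung, where 30.7% of all probes did. With slide as a fixed term neither trend passed (Tfrc -0.70, adjusted p = 0.985; Slc40a1 0.94, adjusted p = 0.714, both in limma), and 133 of all probes still did.

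Erythroid and proliferation genes moved in the same lungs as Tfrc. The mean of the 13 erythroid genes measured by a probe fell from between 7.57 and 7.94 at 0 Gy to between 6.72 and 6.75 at 12 Gy. It lay between 6.97 and 7.52 at 1 Gy and between 6.71 and 6.84 at 2 Gy. At 12 Gy, where 21.3% of all probes passed in either direction, 6 of 11 tested genes were lower and 1 higher. Alas2, the erythroid enzyme that starts heme synthesis, fell by 6.69 at 12 Gy (SE 0.43, adjusted p = 1.27e-07 in limma). The 18 proliferation genes averaged between 8.1 and 9.55 at 0 Gy, between 7.47 and 7.83 at 1 Gy and between 7.09 and 7.5 at 2 Gy. They averaged between 6.88 and 7.44 at 12 Gy. There 14 of them fell, beside the same 21.3% of all probes. Their part in the level of Tfrc was not tested.

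**Figure D3:**
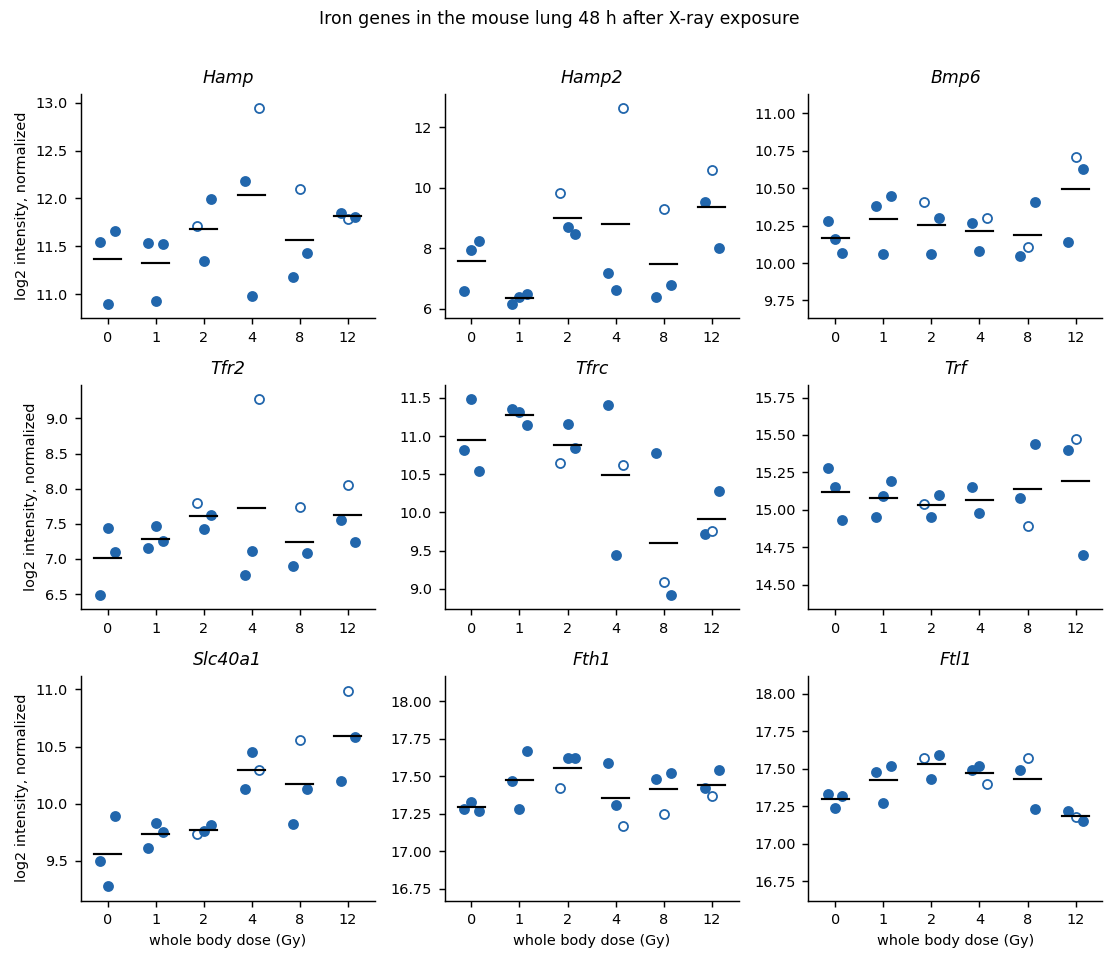
Levels of the 9 iron genes in the lung (y axis, log2 normalized intensity, a scale of its own in each panel) against whole body dose (x axis, Gy). Points are mice, bars are means, and open points mark the 4 arrays whose hepatocyte marker mean was over 10. The mean of Slc40a1 is highest at 12 Gy (10.59) and that of Tfrc is lowest at 8 Gy (9.59). From 2 Gy on, slide and dose cannot be told apart. The open points are among the highest for Hamp2 and Tfr2.

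The hepcidin genes were much lower in lung than in liver, and Hamp2 was highest in the lung array of highest hepatocyte marker level. Hamp2 was at 6.59, 7.95 and 8.26 in the control lungs, 6.17, 6.38 and 6.5 at 1 Gy, and 7.18, 6.62 and 12.63 at 4 Gy. The value of 12.63 came from sample 24, whose hepatocyte marker mean was 12.74. In the 4 lung arrays with a hepatocyte mean over 10, Hamp2 lay between 9.31 and 12.63, and in the other 14 between 6.17 and 9.54. Tfr2, which is largely a hepatocyte gene, lay between 7.74 and 9.27 in those 4 arrays and between 6.49 and 7.63 in the other 14, so that the ranges did not overlap. Hamp lay between 11.71 and 12.94 in the 4 arrays and between 10.9 and 12.18 in the others. The part of hepatocyte RNA in these lung levels was not tested.

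None of these 3 genes passed in any lung comparison in limma. At 12 Gy the differences were 0.45 for Hamp (SE 0.39, adjusted p = 0.439), 1.78 for Hamp2 (SE 1.2, adjusted p = 0.314) and 0.61 for Tfr2 (SE 0.48, adjusted p = 0.388). The SE of Hamp2 in the lung exceeded that in the liver (0.22). Without the 4 arrays of high hepatocyte level, the members that had passed in the lung still did: Slc40a1 had a 12 Gy difference of 0.83 (adjusted p = 0.0298) and a trend of 0.72 (adjusted p = 0.0176), and the trend of Tfrc was -1.35 (adjusted p = 0.047), all in limma.

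Bmp6, Trf and the ferritins did not pass in the lung after quantile normalization. Bmp6 lay between 10.05 and 10.71 over the 18 lungs, with a 12 Gy difference of 0.32 (SE 0.17, adjusted p = 0.201 in limma). Trf lay between 14.7 and 15.47 on 17 arrays, since its spot on the array of 4 Gy sample 24 was an outlier and was dropped from the fit. Fth1 lay between 17.17 and 17.67 and Ftl1 between 17.15 and 17.59, and neither trend passed (0.03 and -0.17, adjusted p = 0.883 and 0.273 in limma). On the processed signal, the lung trends of Fth1 (0.32, adjusted p = 0.0361 in limma) and Bmp6 (0.47, adjusted p = 0.0417 in limma) passed, with a median trend of 0.11 over all probes on that scale. On the authors' series values that of Bmp6 passed as well (0.42, adjusted p = 0.0472 in limma).

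Of the 25 hepcidin control genes, 8 rose and 0 fell in the lung at 12 Gy, where 21.3% of all probes passed, and 12 rose and 2 fell in the trend, where 30.7% did. Gdf15 was at 7.63, 7.61 and 7.31 in the control lungs and at 11.97, 11.95 and 12.14 after 12 Gy, and rose by 4.5 (SE 0.17, adjusted p = 1.2e-09 in limma). Neo1, a receptor that binds hemojuvelin, rose by 1.02 (SE 0.14, adjusted p = 0.000205 in limma). Smad7, which had a rising trend in the liver, had a falling one in the lung (-1.13, SE 0.28, adjusted p = 0.00604 in limma), with a value of 0.13 and an adjusted p of 0.999 when slide was a fixed term, and the call was lost also without the arrays of the second scan day. Fgl1 rose by 1.63 at 12 Gy (SE 0.52, adjusted p = 0.0372 in limma) and was highest, at 9.73, in the lung array of highest hepatocyte level, and its call was lost in 8 of 16 alternatives.

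Of the other lists, iron uptake and export had 4 of 14 genes higher and 0 lower in the lung at 12 Gy, beside 21.3% of all probes. Iron sensing and storage had 3 of 10 measured genes higher, and heme and hemoglobin recycling had 1 of 11 higher, the receptor gene Lrp1 (0.94, SE 0.24, adjusted p = 0.0126 in limma, a call lost in 4 of 16 alternatives). Il6 was well above background on 8 of 18 lung arrays and Erfe on 13.

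**Figure D4:**
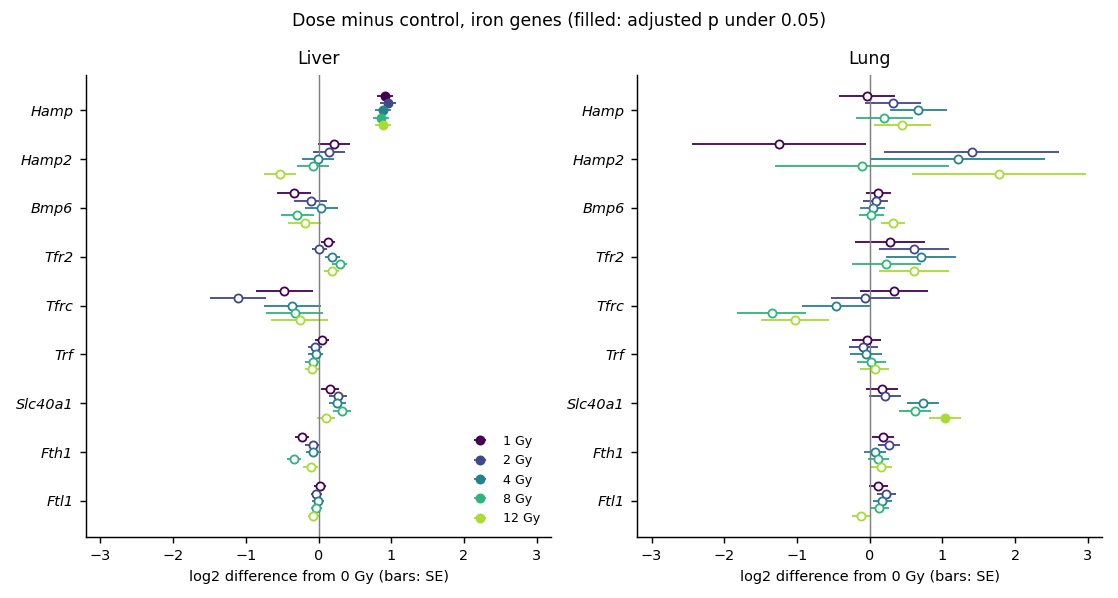
Difference of each dose from 0 Gy (x axis, log2 scale) for each iron gene (y axis) in liver and lung. Points are limma estimates from 3 against 3 arrays, bars are standard errors, colours are doses, and filled points passed an adjusted p of 0.05. The filled points are the 5 doses of Hamp in liver and 12 Gy for Slc40a1 in lung.

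The dose trends of both tissues were then set against each other in one model of all 36 arrays. Slc40a1 had a trend that was 0.94 higher in lung than in liver (SE 0.22, adjusted p = 0.0036 in limma). The trend of Tfrc was 1.72 lower in lung, a difference of -1.72 (SE 0.54, adjusted p = 0.0263 in limma), whereas its second probe gave 0.09 (SE 0.35, adjusted p = 0.903 in limma). These were 2 of 9 members, and 16.4% of all 47376 probes passed. Hamp did not differ past the threshold in this linear term, with 0.09 (SE 0.39, adjusted p = 0.911 in limma). A linear term measures poorly the step of Hamp in the liver, which was level from 1 Gy on. At 1 Gy the difference of Hamp from 0 Gy was 0.91 in liver and -0.04 in lung, with each tissue normalized apart. With all 36 arrays normalized together, the liver difference was 0.64, and the lung means were 10.95 at 0 Gy and 10.9 at 1 Gy. The tissues were not tested against each other at this dose. With the mean of both Tfrc probes the difference was -0.82 (adjusted p = 0.13), without liver sample 6 at 12 Gy it was -1.61 (adjusted p = 0.0605), and without the 4 lung arrays of high hepatocyte level -1.59 (adjusted p = 0.0728), all in limma. Without the 4 lung arrays of the second scan day the differences were 1.11 for Slc40a1 (adjusted p = 0.0674) and -2.09 for Tfrc (adjusted p = 0.216), and neither passed in limma. With slide as a fixed term in this model, Slc40a1 was at 1.02 and Tfrc at -1.34, and none of all probes passed in limma.

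In the unirradiated control mice, the iron genes separated the tissues widely. With all 36 arrays normalized together, Hamp averaged 17.08 ± 0.10 (SD, n = 3) in liver and 10.95 ± 0.44 in lung, and Hamp2 17.61 ± 0.19 and 7.07 ± 0.84. Tfr2 averaged 15.17 ± 0.02 in liver and 6.49 ± 0.44 in lung. The lung was lower by 6.14 for Hamp, a difference of -6.14 (SE 0.32, adjusted p = 7.45e-16 in limma), by 10.54 for Hamp2 (-10.54, SE 0.93, adjusted p = 9.63e-11 in limma) and by 8.68 for Tfr2 (-8.68, SE 0.36, adjusted p = 4.6e-18 in limma). Hepatocyte RNA on the 3 control lung arrays was at marker means of 6.68, 7.96 and 8.68 on this joint scale, and its part in these lung values was not tested.

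Trf and Slc40a1 were lower in lung as well, by -3.25 (SE 0.15, adjusted p = 1.03e-16 in limma) and -4.50 (SE 0.18, adjusted p = 3.07e-18 in limma). Bmp6, which endothelial cells make in liver, was higher in lung by 2.35 (SE 0.22, adjusted p = 2.66e-10 in limma), or 5.08-fold. Tfrc was higher in lung by 1.14 (SE 0.45, adjusted p = 0.035 in limma). That call was lost without liver sample 21 or lung sample 11 (each 0.86, adjusted p = 0.165 and 0.164), without lung sample 1 (1.21, adjusted p = 0.0539), on the authors' series values (1.01, adjusted p = 0.0515) and with slide as a fixed term (1.91, adjusted p = 0.18), all in limma.

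In this comparison 7 of 9 members passed, where 52.8% of all probes did. The ferritins were the exceptions. The direction of Fth1 depended on the scaling, whereas Ftl1 was lower in lung on each scale. Fth1 had a difference of 0.21 (SE 0.16, adjusted p = 0.288 in limma) after quantile normalization but -1.22 on the processed signal (adjusted p = 5.15e-09 in limma), where the median of all probes was -0.28. Ftl1 had -0.28 (SE 0.13, adjusted p = 0.0804 in limma) and -1.87 (adjusted p = 3.29e-13 in limma) on those scales, and its second probe had -1.51 (SE 0.12, adjusted p = 7.97e-12 in limma) after quantile normalization.

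**Figure D5:**
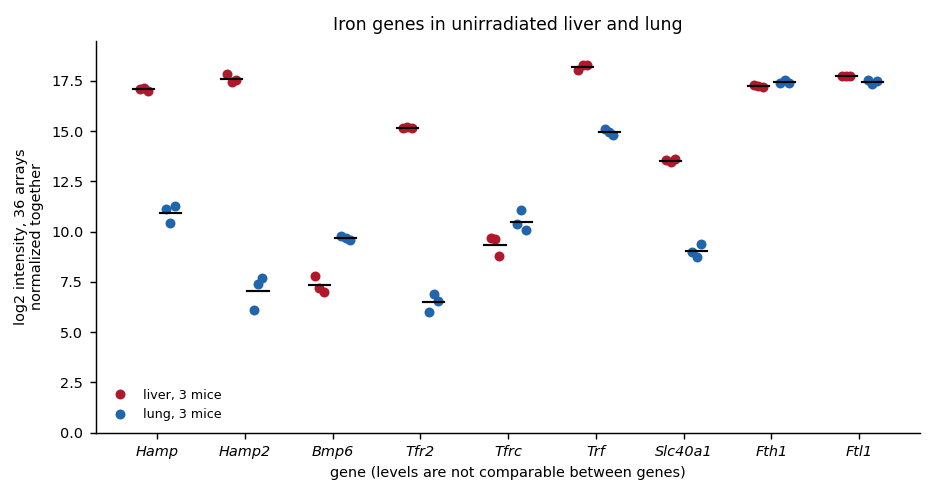
Levels of the 9 iron genes in unirradiated liver and lung (y axis, log2 normalized intensity with all 36 arrays normalized together). Points are 3 mice per tissue and bars are means, and levels of different genes cannot be set against each other. The widest gaps between tissues are those of Hamp2, Tfr2 and Hamp, while the ferritin points lie close together without overlapping, Fth1 from 17.18 to 17.32 in liver and 17.41 to 17.54 in lung.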

How the data were processed

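Total RNA of liver and lung was amplified, labelled and hybridized by the authors to Agilent Mouse GE 8×60K v2 arrays. The deposited files hold spot and background intensities as Agilent Feature Extraction 11.5.1.1 wrote them, not normalized, with flags, and a series table of the authors' processed intensity values, whose scaling is not given in the sources used here. The study's methods name normal-exponential correction, quantile normalization and limma. Here normexp (offset 0) was applied to the median signal of each spot, and arrays were quantile normalized within each tissue in limma 3.58.1 (R 4.3.3), and the brightest probe stood for a gene where the study averaged probes. Control spots were left out and outlier spots set to missing. Spots of one probe were averaged, and a probe was kept if 1 array or more showed it well above background (38362 in liver, 43979 in lung, 47376 jointly).

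Of 56605 probes, 34566 were named through RefSeq accessions (GRCm38.p6). Each probe was fitted by limma with 6 dose groups, by a linear dose term expressed as change over 12 Gy, and, for both tissues, by a joint model. P-values were adjusted over all probes by Benjamini-Hochberg. Genes of the lists past an adjusted p of 0.05 and 2-fold at 8 or 12 Gy or in the trend were named, at most 8 per tissue, and genes behind small counts, Saa1 and Alas2 were chosen after their values were seen. Each alternative changed 1 choice, except that the processed signal and the authors' values replaced background correction and normalization together. The members and lists were chosen with earlier results of these data known. Code was tested on simulated data. With 3 arrays per group, their number limits the precision. Each p-value sets a difference against a spread between samples, which limma estimated over all groups in the fit and moderated over all probes. The miRNA arrays were not used here.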

Additional observations from a re-analysis of the deposited data

Results flagged for a closer look

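Slc40a1 and Tfrc had dose trends that differed between the tissues by a test of the difference itself, in 1 limma model of all 36 arrays. For Slc40a1 (probe A_51_P389988) the trend was 0.94 higher in lung than in liver (SE 0.22, adjusted p = 0.0036). Fitted in each tissue alone, its trend was 0.06 in liver (SE 0.11) and 0.94 in lung (SE 0.19). For Tfrc (probe A_52_P228236) the difference, lung minus liver, was -1.72 (SE 0.54, adjusted p = 0.0263), and the trends fitted in each tissue alone were 0.17 in liver (SE 0.36) and -1.47 in lung (SE 0.39). The call of Tfrc was lost without liver sample 6 at 12 Gy (-1.61, adjusted p = 0.0605). Both were lost without the 4 lung arrays of the second scan day, at 1.11 for Slc40a1 (adjusted p = 0.0674) and -2.09 for Tfrc (adjusted p = 0.216), and with slide as a fixed term (1.02 and -1.34). Groups of 3 mice are too small for the outlier test used.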

How the results depend on the processing

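For the members that passed, 390 combinations of a result and an alternative setting in limma were compared with the values above. One fit can give several of them, and many left out 1 array. They include 16 for each of the 7 members that differed between unirradiated tissues, so they do not concern dose alone. Of these, 347 kept direction and call, 43 kept the direction and lost the call, and 0 changed sign. The difference of Hamp in liver lay between 0.61 and 1.06 in all alternatives. Among the other iron genes named, 459 of 526 checks kept the call, 66 lost it, and 1 changed sign, the lung trend of Smad7 with slide as a fixed term (0.13). The cause of these changes was not tested.

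The number of members passing changed as follows. In liver at 8 Gy, 3 passed with a normexp offset of 50 and 2 with the mean of a gene's probes, instead of 1. At 1 Gy in liver 0 passed on the processed signal, on the authors' values and with only the groups compared in the fit, which also left 0 at 2 Gy. With slide as a fixed term 0 passed in liver at 4, 8 and 12 Gy and in both tissues' trends. In the liver trend 0 passed also on the processed signal, on the authors' values, without the filter on dim probes, with slide as a random block and with all 36 arrays normalized together. In lung at 12 Gy 0 passed with slide as a random block and with only the groups compared, and in the lung trend 4 passed on the processed signal. In the tissue difference 1 passed with the mean of probes and 1 without the 4 lung arrays of high hepatocyte level, and 0 with slide fixed. Without the 4 lung arrays of the second scan day 0 passed in the lung trend and 0 in the tissue difference. These last 3 settings were chosen after seeing the data. Smaller changes were 3 instead of 2 in the lung trend on the authors' values, and between unirradiated tissues 9 on the processed signal, 8 on the authors' values, 8 with the mean of probes and 6 with slide fixed, instead of 7.

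With each array left out in turn, 0 to 1 members passed in liver at 1 Gy, 1 to 2 at 8 Gy and 0 to 1 in the trend. The counts were 0 to 1 in lung at 8 Gy, 1 to 2 in the tissue difference and 6 to 7 between unirradiated tissues. With the sample number as a replicate block, 2 members passed in the tissue difference and 7 between unirradiated tissues, so the pairing changed no member's call. Same-numbered liver and lung arrays did not deviate together, since 0 of 18 correlations of their deviations from the group means were over 0.1. A fixed slide term could not be fitted for lung at 2, 4, 8 and 12 Gy.

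Counts over all probes also moved. With slide fixed, 65 instead of 1268 probes passed in liver at 4 Gy, 271 instead of 3797 at 8 Gy, 324 instead of 2692 at 12 Gy, 108 instead of 3646 in the trend, 133 instead of 13480 in the lung trend, 0 instead of 7769 in the tissue difference and 15818 instead of 25035 between unirradiated tissues. Slide as a random block left 635, 2209 and 2294 in liver at 4 Gy, 8 Gy and in the trend, and 30, 258, 763 and 1792 in lung at 2, 4, 8 and 12 Gy (242, 958, 1870 and 9374 without it), and 8697 in the lung trend. With only the groups compared, 0, 21 and 1106 passed in liver at 1, 2 and 8 Gy, and 0, 26, 148, 511 and 3135 in lung from 1 to 12 Gy. An offset of 50 gave 44, 370 and 2012 in liver at 1, 2 and 4 Gy (16, 176 and 1268 without it), and no filter 8, 93, 709 and 2370 from 1 to 8 Gy. At 1 Gy in lung, 11 probes passed, and 17 to 96 did under the other settings that moved this count upward. Without the 4 lung arrays 79, 460 and 5009 passed at 2, 4 and 12 Gy. Without the second scan day 2314 passed in the lung trend and 621 in the tissue difference. With slide fixed, 7 passed in liver at 1 Gy.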
